A study of Mus musculus with 24 samples.

Results

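A set of 8 genes for abundant structural noncoding RNAs of the cell was followed through the 24 libraries of a mouse Thumpd1 knockout study: Rn7s1 and Rn7s2 (the 7SL RNA), Rn7sk, Rpph1, Rmrp, Rnu2-10, Gm26917 and Gm42418. They were taken by symbol from a table of estimated read counts with 55450 gene entries. Rmrp has a pair of entries, so the 8 genes fill 9 entries. They had been chosen by their measured share of counts and the differences of that share between tissues in these same libraries, and the fall of Rnu2-10 in the cerebellum was also known then. Levels, tissue differences and that fall are therefore given as descriptions.

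Total RNA came from the cerebellum, liver and testes of mice that were wild type (WT) or lacked Thumpd1 (KO), with 4 libraries per tissue and genotype. Thumpd1 encodes a tRNA-binding protein needed for the acetylation of cytidine in certain tRNAs. The KO allele was made by Cas9 cuts in exons 1 and 4 in C57BL/6N eggs and kept on a C57/BL6 background. The animals, described as of either sex, were aged 6 to 12 weeks. WT littermates of like age served as controls, and no other allele or agent was named. Testes come only from males, and the labels give no sex for the cerebellum and liver libraries. The deletion is present in the whole animal, and the labels do not tie libraries of different tissues to one mouse. The libraries of a group are described as biological replicates. Libraries are named by their numbers, WT 1 to 4 and KO 5 to 8. Ribosomal RNA was removed before stranded, paired-end sequencing.

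These RNAs work without being translated. 7SL RNA is the scaffold of the signal recognition particle, which brings ribosomes that make secreted and membrane proteins to the endoplasmic reticulum, and is a major RNA of secretory tissues such as liver. 7SK RNA holds the kinase P-TEFb inactive together with HEXIM proteins and so restrains transcription elongation. RNase P RNA (Rpph1) is the catalytic RNA that trims the 5′ ends of precursor tRNAs, and RNase MRP RNA (Rmrp) is its relative in ribosomal RNA maturation. U2 small nuclear RNA (Rnu2-10) pairs with the branch point of introns during splicing. Gm26917 and Gm42418 are annotated as long noncoding RNAs at a ribosomal RNA locus. All but the last 3 genes are made by RNA polymerase III, whereas U2 is made by RNA polymerase II.

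Several of these genes have identical or overlapping copies, which bears on how reads could be divided among entries. Rn7s1 lies at chr12:69159295-69159594 on the plus strand of mm10 and Rn7s2 at chr12:69361182-69361481 on the minus strand. Both entries have the same sequence, with 0 differences over 300 bases, so that no read inside it can tell one from the other.

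Rnu2-10 spans chr11:101658238-101658428 on the plus strand, 191 bases. The entries Gm23849 at chr11:101627366-101627556, Gm24950 at chr11:101641748-101641938 and Gm23971 at chr11:101645740-101645930 (minus strand) have the identical sequence. The first line below shows it with the branch point pairing motif GTAGTA in capitals, and the second shows one near copy with its only different base in capitals. That base is the substitution G109C, counted from 1 at the 5′ end of Rnu2-10, and reads that do not cover it do not separate Gm23444 from the identical entries.
Rnu2-10: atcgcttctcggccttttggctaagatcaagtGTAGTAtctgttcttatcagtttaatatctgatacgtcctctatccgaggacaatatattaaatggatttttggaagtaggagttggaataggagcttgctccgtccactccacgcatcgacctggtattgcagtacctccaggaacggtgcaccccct
Gm23444: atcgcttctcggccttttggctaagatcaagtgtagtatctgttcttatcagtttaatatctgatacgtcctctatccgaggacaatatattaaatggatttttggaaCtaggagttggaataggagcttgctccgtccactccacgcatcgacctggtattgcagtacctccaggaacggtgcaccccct

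The motif GTAGTA, sought on the given strand, starts at base 33 of Rnu2-10. It occurs in the first 191 bases of 1.13% of the 134745 annotated transcripts that are at least this long. In all, 15 other entries were at least 85% identical to Rnu2-10 over at least 80% of its length.

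Rn7sk is a gene of 331 bases at chr9:78175303-78175633 on the minus strand. Its first 100 bases are shown because they hold the part known to bind HEXIM, with each GATC in capitals.
Rn7sk, bases 1 to 100: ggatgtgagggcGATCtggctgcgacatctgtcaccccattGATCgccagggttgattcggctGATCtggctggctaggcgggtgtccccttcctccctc

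GATC, which reads the same on both strands, occurs 3 times in Rn7sk, at bases 13, 42 and 64. Of the 129282 transcripts at least 331 bases long, 7.99% have as many within their first 331 bases. A match of letters is a description only.

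Rmrp has a ribozyme entry of 271 bases, chr4:43492788-43493058, and a long noncoding RNA entry of 281 bases, chr4:43492783-43493063, both on the minus strand. The longer entry is shown, with the 5 bases at each end that the ribozyme entry lacks in capitals, because only reads that reach them can be told apart. An exon of Ccdc107 covers 124 bases of it on the opposite strand.
Rmrp: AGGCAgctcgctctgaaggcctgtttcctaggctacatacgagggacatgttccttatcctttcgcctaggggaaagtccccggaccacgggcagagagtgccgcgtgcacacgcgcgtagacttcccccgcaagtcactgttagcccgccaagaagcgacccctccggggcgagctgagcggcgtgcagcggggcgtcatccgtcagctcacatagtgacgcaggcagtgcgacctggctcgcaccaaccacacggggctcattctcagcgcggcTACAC

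Rpph1 covers 319 bases at chr14:50807449-50807767 on the minus strand and overlaps an exon of Ccnb1ip1 on the same strand. Its closest other copies are Rprl3 (86.0% identity) and Rprl2 (85.6%). Gm26917 covers chr17:39843013-39846341 and Gm42418 covers chr17:39846958-39848788, both on the plus strand. Gm42418 faces CT010467.1, annotated as ribosomal RNA, over 1244 bases and AY036118 over 923 bases on the opposite strand. The library kit marks strand, but the strand setting of the counting was not given in the sources used here.

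Thumpd1 itself was measured first as a check of the labels. It stood at 22.4 ± 1.06 CPM (each count scaled to the total of its library; mean ± SD, n = 4) in WT cerebellum and 9.74 ± 0.401 CPM in WT liver, against 0 to 2 and 0 to 4 counts per KO library. In testes it was 25.2 ± 0.84 CPM in WT and 0.955 ± 0.2 CPM in KO. Hepatocyte, cerebellar neuron and male germ cell markers were present in their own tissue, and all 6 cerebellar neuron markers were at or under 3 counts in the liver libraries. In cerebellum 3 of 6 hepatocyte markers (Alb, Apob and Serpina1a) were at or under 3 counts, while the sum of all 6, which includes Ttr, also a choroid plexus gene, reached 963 CPM in WT and 317.3 CPM in KO. The summed choroid plexus markers ranged there from 10.5 to 1056.6 CPM in WT and from 14.1 to 352.1 CPM in KO.

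The 8 genes together made up 17.55% to 31.03% of all counts in liver, 6.15% to 7.49% in cerebellum and 4.63% to 5.93% in testes. In each tissue the WT and KO ranges overlapped. In liver the sum was 17.55%, 19.11%, 23.2% and 31.03% in WT 1 to 4 and 27.26%, 26.46%, 18.9% and 17.57% in KO 5 to 8. The KO mean minus the WT mean was -0.177 percentage points in liver, 0.571 in cerebellum and 0.209 in testes. Leaving out Gm26917 and Gm42418 turned the liver difference to 2.4 points and the testes difference to -0.074 points, and leaving out single libraries moved the liver difference between -1.9 and 2.59 points and the cerebellum difference between 0.437 and 0.769 points. In testes the difference was 0.0202 without KO 7, 0.0365 without WT 1, 0.361 without WT 2 and 0.369 without KO 6. These are differences of shares without a test. In bulk tissue, fewer cells of a type and less RNA per cell cannot be told apart.

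**Figure D1:**
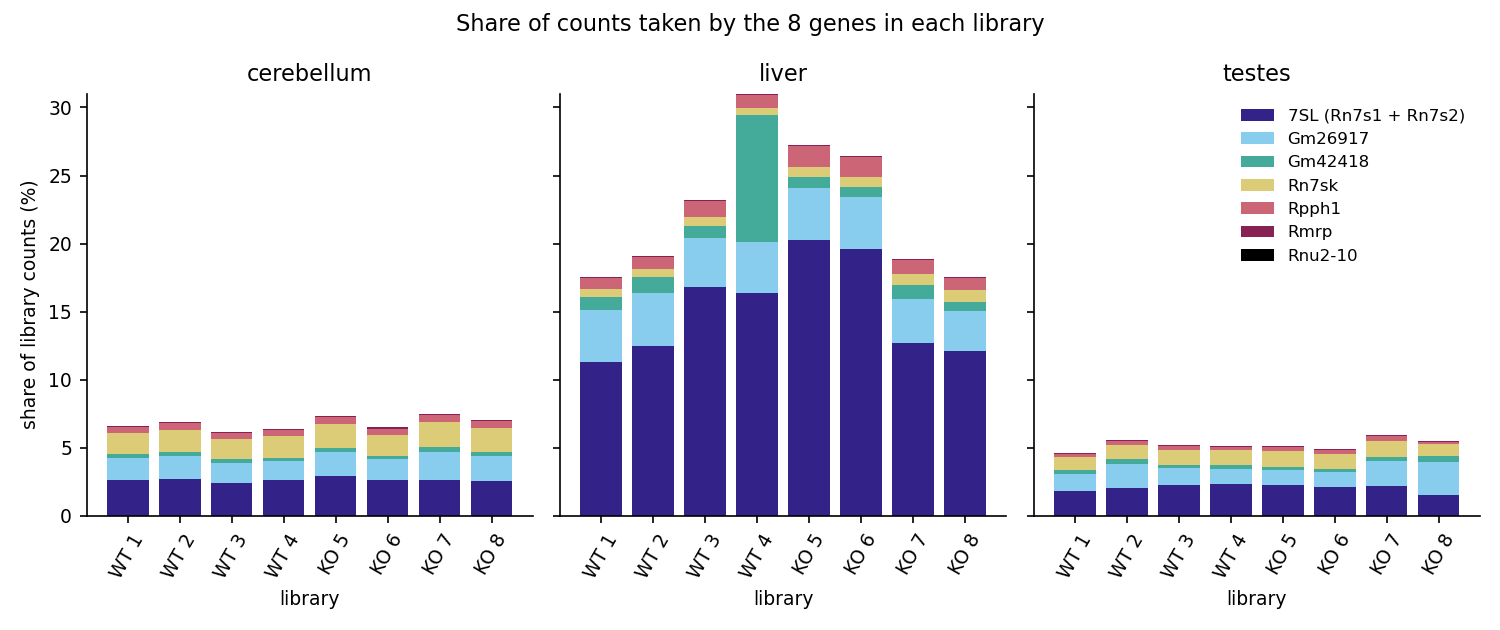
Share of all counts of each library (%, vertical axis) taken by the 8 genes, stacked by RNA, for the 8 libraries of each tissue (WT 1 to 4, KO 5 to 8). 7SL RNA makes the tallest part of the liver columns, which reach 31.03% in WT 4, where Gm42418 is also tall.

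7SL RNA, the sum of Rn7s1 and Rn7s2, was 5.75 times higher in liver than in cerebellum and 7.36 times higher than in testes, with no overlap of the library ranges. It held 11.32% to 20.3% of counts in liver, 2.391% to 2.928% in cerebellum and 1.517% to 2.313% in testes. Rpph1 had the same tissue order, liver over cerebellum over testes, at 7825 to 15184 CPM, 4136 to 5288 CPM and 1880.2 to 3326 CPM. Rn7sk ran the other way. Its level in liver, 5313 to 8188 CPM, was 0.422 of that in cerebellum, 14643 to 18395 CPM, and testes lay between at 8449 to 11851 CPM. Rmrp differed least between tissues, by ratios of means of 0.968 to 1.1 with overlapping ranges, at 627 to 948 CPM over all 24 libraries.

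The 4 identical U2 entries summed to 264.7 to 461.5 CPM in cerebellum, 86.5 to 194.2 CPM in liver and 151.5 to 237.1 CPM in testes, and the liver and testes ranges overlapped. Rnu2-10 alone stood at 42.7 CPM or less in every library. The word abundant therefore does not describe this entry, although U2 RNA is a major small RNA of the nucleus. Gm26917 was highest in liver at 28796 to 38634 CPM, against 13900.1 to 20459 CPM in cerebellum and 10744 to 24625 CPM in testes, where the last pair overlapped. Gm42418 held 2499 to 3426 CPM in cerebellum and 2205 to 4253 CPM in testes, which overlapped, and 7190 or more in liver. Per kilobase of annotated length, 7SL RNA lay at 377420 to 676768 CPM per kilobase in liver, and the U2 sum at 452.9 to 1017 CPM per kilobase. Lengths are those of the annotation.

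The knockout comparison asked which of these RNAs changed when Thumpd1 was lost. With limma-voom after quantile normalization, 1 of the 9 entries passed an adjusted p (Benjamini-Hochberg over all genes) of 0.05 in cerebellum, where 6.44% of all genes did. That entry was Rnu2-10, whose fall there was known beforehand, so nothing is read from it, and 0 of the other 8 passed, with 0 at an unadjusted p under 0.05 and 3 under TMM (Rn7s2, Rn7sk and Gm26917, adjusted p 0.131, 0.126 and 0.0930). In liver 0 of 9 passed, against 5.91% of all genes, with 4 at an unadjusted p under 0.05. In testes 1 of 9 passed, against 20.5% of all genes. Quantile normalization gives each rank the same value in every library, so the genes at the top ranks could hardly pass in that fit, and the counts beside the shares of all genes are limited by this. Rn7s1 held rank 4 in all 8 testes libraries and its change there is 0.00 by construction. In cerebellum Rn7s2 and Rn7sk lay at ranks 2 to 4, Gm26917 at 1 to 4 and Rn7s1 at 5 to 6. In testes Rn7s2 and Gm26917 lay at ranks 1 to 3 and Rn7sk at 2 to 3. TMM scales whole libraries and does not fix these values. The entry that passed in testes was the long noncoding entry of Rmrp, lower in KO. In liver, TMM limma-voom, edgeR and DESeq2 each called 1 entry, Rn7sk, higher in KO, where they called 6.8%, 6.3% and 11% of all genes. When entries that share a sequence were summed (7 features, a choice made after seeing the data), quantile limma-voom called 0 in each tissue, against 6.38%, 5.89% and 20.6% of all features in cerebellum, liver and testes. At an unadjusted p under 0.05 it had 1, 2 and 0 features, with the sums of 7SL in cerebellum and liver and Gm26917 in liver at 0.00 by construction. With these sums TMM limma-voom called 0, 1 and 0, against 6.66%, 6.84% and 23% of all features, the 1 being Rn7sk in liver, and had 3, 1 and 0 at an unadjusted p under 0.05.

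**Figure D2:**
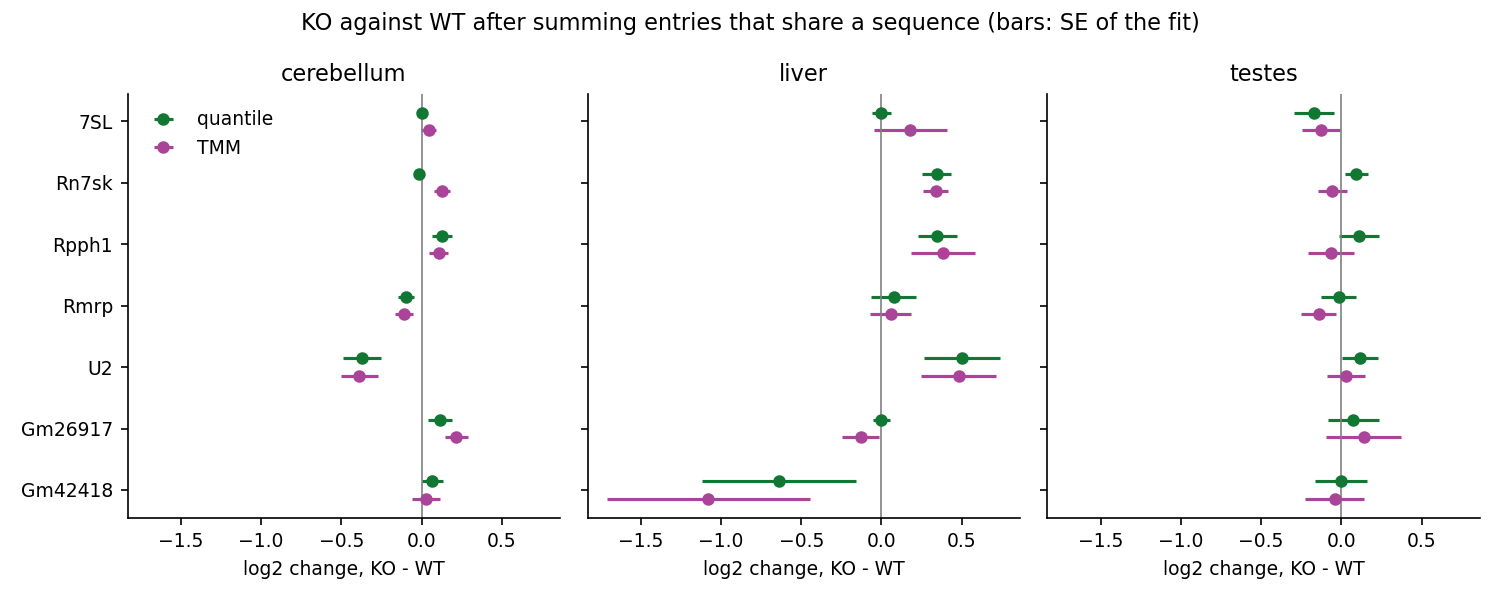
Log2 change of KO against WT (horizontal axis, same scale in each panel) with its standard error for the 7 features in each tissue, under quantile and TMM normalization. Bars of Gm42418 in liver are the widest, Rn7sk in liver lies right of 0 under both, and U2 lies left of 0 in cerebellum only.

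Rn7sk, the brake on P-TEFb, was the one feature whose KO liver libraries all lay above the WT ones. Its level was 5901.5, 6447, 6833 and 5313 CPM in WT 1 to 4 and 7212, 7215, 8188 and 8173 CPM in KO 5 to 8. Among all genes tested in liver, 7.34% showed KO above WT without overlap. The log2 change was 0.34 ± 0.0933 (SE) with an adjusted p of 0.0562, just outside the threshold, under quantile normalization. It was 0.0282 under TMM, 0.0496 with edgeR and 0.000364 with DESeq2. Leaving out single libraries gave an adjusted p of 0.0244 to 0.154, and 1 of 8 such fits, the one without KO 7, passed. In the same libraries 1 of 6 hepatocyte markers rose, with summed levels of 51901 to 68628 CPM in WT and 62587 to 91834 CPM in KO, and their part in the Rn7sk values was not tested.

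Rn7sk overlapped between genotypes in the other tissues. In cerebellum it was 15323, 16476, 14643 and 15802 CPM in WT and 17411, 15606, 18395 and 17211 CPM in KO, and the log2 change was -0.04 under quantile normalization and 0.13 under TMM (adjusted p 0.514 and 0.126). The sign in cerebellum thus turned with the scaling. In testes it was 10104, 10632, 10694 and 10995 CPM in WT and 11851, 11118, 11408 and 8449 CPM in KO. KO 8 was the lowest of the testes libraries and the other KO libraries were the highest. The knockout effect on Rn7sk was lower in testes than in liver by 0.48 ± 0.115 on the log2 scale (interaction term, TMM limma-voom, adjusted p 0.00731), and the call held in each of 24 fits that left out 1 library. With all tissues quantile normalized to one distribution the difference was -0.27 and did not pass (adjusted p 0.409).

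Rnu2-10 was lower in every KO cerebellum library than in any WT one, which was known when the genes were listed. It stood at 40.25, 42.7, 41.51 and 31.75 CPM in WT and 25.97, 19.91, 13.68 and 8.065 CPM in KO (log2 change -1.37 ± 0.233, given without a test). KO below WT without overlap was seen for 4.99% of genes in cerebellum. The identical sequences do not allow this to be read for one locus. Summed over the 4 identical entries, U2 was 461.5, 445.8, 419.4 and 461.1 CPM in WT and 394.4, 443.7, 264.7 and 306.7 CPM in KO. The genotypes then overlapped, through KO 6, and the change was -0.37 ± 0.118 with an adjusted p of 0.0797 (TMM 0.0643). This sum contains the Rnu2-10 counts, whose fall was known, so nothing is read from its test in cerebellum.

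In liver the 4 U2 entries summed to 86.5, 97.48, 182.5 and 146.8 CPM in WT and 182.8, 194.2, 147.2 and 160.8 CPM in KO (log2 change 0.50, adjusted p 0.235). In testes they summed to 205.5, 151.5, 197.1 and 188.3 CPM in WT and 237.1, 213.7, 176.9 and 164.1 CPM in KO (0.12, adjusted p 0.475). Groups overlapped in both tissues. Rnu2-10 alone ranged in liver from 0.03112 CPM in WT 4, under the 0.111 CPM that 3 counts represent there, to 30.51 CPM in KO 6. The spread within genotypes in liver was 1.34 (SD on the log2 scale) for Rnu2-10 and 0.375 for the sum.

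The estimated counts show how U2 reads were divided. Rnu2-10 equalled Gm23849 within 0.01 counts in 22 of 24 libraries and equalled Gm24950 in 14, but never Gm23971, which held 52.9% to 99.9% of the sum. In cerebellum Rnu2-10 was 6.89% to 9.9% of the sum in WT and 2.63% to 6.59% in KO. The knockout effect on Rnu2-10 in liver minus that in cerebellum was 3.97 on the log2 scale, which holds the cerebellum fall known beforehand and is given without a test. The testes minus liver difference was -3.88 (adjusted p 0.0234). Without liver WT 4 these became 2.38 and -2.29 (adjusted p 0.0312 for the latter), and the liver change of 2.47 became 1.00. For the U2 sum the differences were 0.87 (adjusted p 0.0519) and -0.53 (adjusted p 0.191), neither past the threshold. The 0.87 also holds the known cerebellum fall, so nothing is read from its test.

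**Figure D3:**
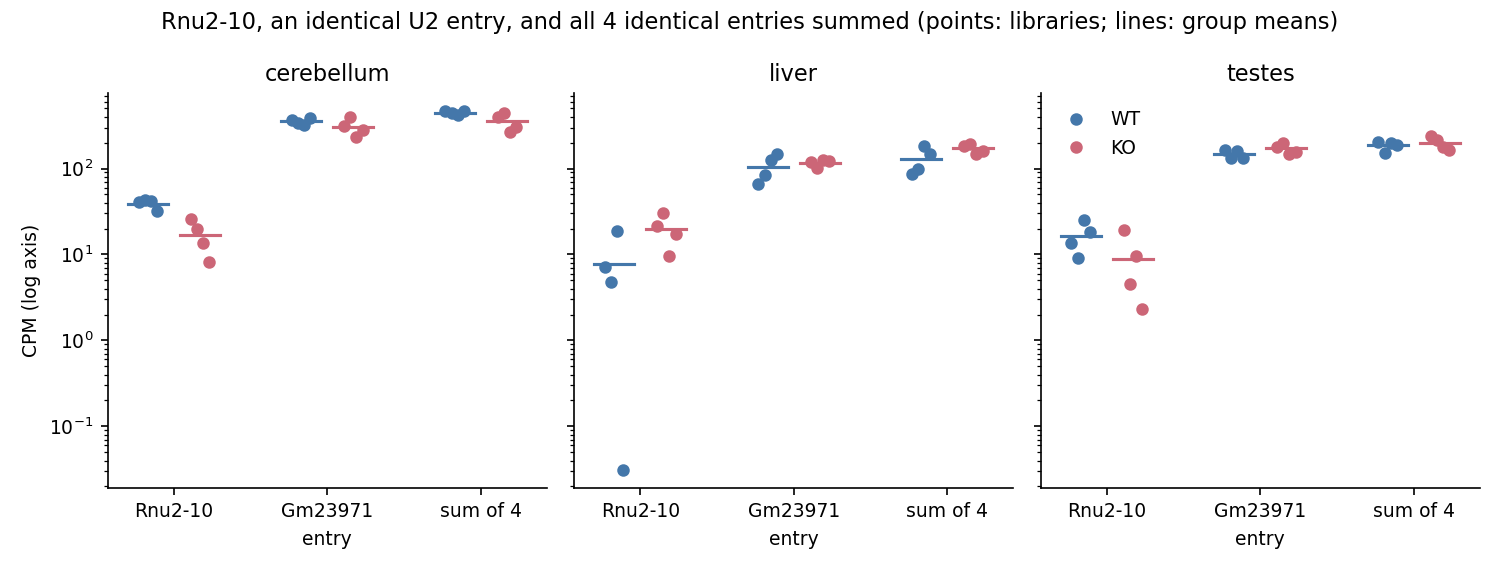
CPM (log axis) of Rnu2-10, of its identical copy Gm23971 and of all 4 identical U2 entries summed in each library, by tissue and genotype (points; the line is the group mean). In cerebellum the Rnu2-10 points of KO (8.065 to 25.97) lie below those of WT (31.75 to 42.7), whereas the sums overlap.

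Of 13 other small structured RNAs tested in cerebellum, 3 were picked after their values were seen, for the libraries with the least U2, KO 7 and KO 8. Rny1, a Y RNA, stood at 26.21 and 37.06 CPM there, Rny3 at 16.96 and 26.27 CPM, and Rnu12, the U12 RNA of the minor spliceosome, at 25.64 and 30.54 CPM, but their KO ranges overlapped those of WT. Over all KO libraries Rny1 reached 52.9, Rny3 39.7 and Rnu12 54.4 CPM, and the WT ranges were 45.2 to 67.9, 30.2 to 45.0 and 45.0 to 64.2 CPM. None of these passed (log2 changes -0.50, -0.48 and -0.51, adjusted p 0.109, 0.162 and 0.11). Others had positive changes, 0.56 for Rn7s6 (adjusted p 0.135) and 0.92 for Rnu5g (adjusted p 0.781). Of the 13, 1 passed (6.44% of all genes) and 10 had an unadjusted p under 0.05, and the one that passed, Rnu1b2, was higher in KO. DESeq2 called 0 of the 13, with 4 at an unadjusted p under 0.05. Their median log2 change was -0.513 against -0.00586 over all genes, but 4 of the 13, Rnu3b1 to Rnu3b4, are copies with the same values (-0.52). In cerebellum, 3 of the 6 cerebellar neuron markers fell and 1 rose, their summed level being 3066 to 3117 CPM in WT and 2709 to 2946 CPM in KO. Of 11 midbrain markers 5 were tested and 3 rose, with sums over all 11 of 27.3 to 38.9 CPM in WT and 44 to 64.1 CPM in KO, Slc6a3, Foxa1 and Foxa2 being at or under 3 counts throughout. Of 5 blood markers 3 were tested and 1 fell, with sums of 7.76 to 8.67 CPM in WT and 3.74 to 7.01 CPM in KO. Their part in the U2 values was not tested.

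One entry of Rmrp fell in testes, and the sum of both entries did not pass. In testes the long noncoding entry was 126.8, 168.0, 142.7 and 126.7 CPM in WT and 116.6, 96.92, 102.5 and 99.45 CPM in KO, without overlap, which 9.8% of testes genes showed in this direction. It fell by 0.44 ± 0.0943 on the log2 scale (adjusted p 0.0107, 0.00559 to 0.0388 when single libraries were left out). The ribozyme entry, which differs by the 5 bases at each end, had a change of 0.06 (adjusted p 0.756).

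Both Rmrp entries together were 680, 849, 868 and 779 CPM in WT testes and 766, 691, 928 and 627 CPM in KO, overlapping, with a change of -0.02 (adjusted p 0.929; TMM -0.14, adjusted p 0.365). The ribozyme entry took 80.2% to 83.7% of Rmrp counts in WT and 84.1% to 89.0% in KO testes. In testes 4 of 7 male germ cell markers fell and 5 of 8 Sertoli cell markers rose. The summed germ cell markers were 9577 to 10056.5 CPM in WT and 6840 to 8886 CPM in KO, and the Sertoli cell markers 964 to 1141 CPM in WT and 1226 to 1784 CPM in KO. The part of these in the Rmrp values was not tested.

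In cerebellum Rmrp was 894, 924, 785 and 907 CPM in WT and 898, 845, 766 and 781 CPM in KO, and in liver 755, 802, 940 and 738 CPM in WT and 938, 948, 712 and 747 CPM in KO. Neither passed (log2 change -0.10, adjusted p 0.25, and 0.075, adjusted p 0.798).

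7SL RNA did not pass in any tissue. In liver it was 113226, 124993.5, 167914 and 163530.2 CPM in WT and 203030.3, 196399, 126812 and 121429 CPM in KO, so that KO 5 and KO 6 were the highest and WT 1 and KO 8 the lowest. KO 5 and KO 6 also had the smallest liver totals, 19958739 and 18145725 counts, and the part of depth was not tested. The TMM change was 0.18 ± 0.226 (adjusted p 0.671). Quantile normalization gave 0.00 by construction, since 7SL was the top feature in every liver library. In cerebellum the level was 26435, 27415, 23908 and 26074 CPM in WT and 29278, 26378, 26555 and 25719 CPM in KO (TMM 0.04, adjusted p 0.595). In testes it was 18277, 20492, 22446.5 and 23131 CPM in WT and 22989.6, 20982, 21928 and 15170.5 CPM in KO (TMM -0.13, adjusted p 0.448).

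The single entries were far less steady than their sum. In liver Rn7s1 was 37718, 52423, 17153 and 91495 CPM in WT and 136111, 86240, 53923 and 102233 CPM in KO, and Rn7s2 was 75508, 72571, 150761 and 72035 CPM in WT and 66920, 110159, 72890 and 19196 CPM in KO. Rn7s1 therefore held 10.2% of the sum in WT 3 and 84.2% in KO 8. The within-genotype SD on the log2 scale in liver was 0.816 for Rn7s1, 0.853 for Rn7s2 and 0.345 for their sum. The share of Rn7s1 was narrower in cerebellum (25.3% to 49.3%) and testes (26.8% to 49.4%).

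**Figure D4:**
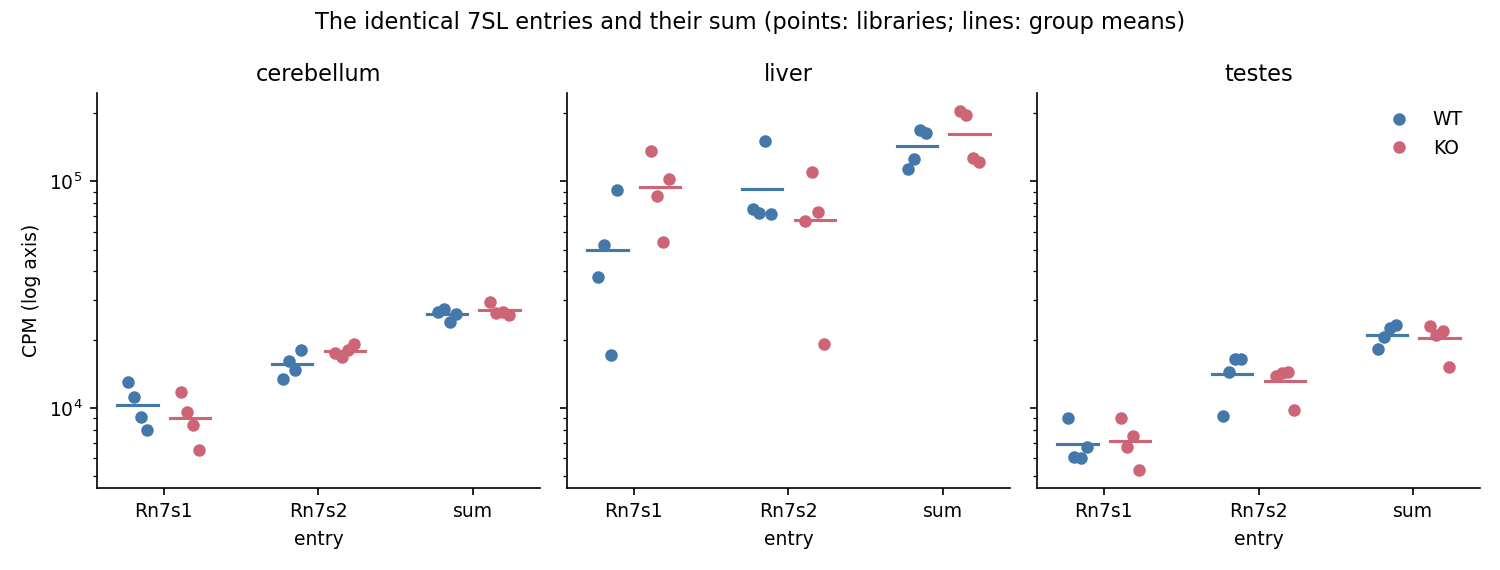
CPM (log axis) of Rn7s1, Rn7s2 and their sum in each library, by tissue and genotype (points; the line is the group mean). In liver the single entries cross between 17153 and 150761 CPM while the sum runs from 113226 to 167914 CPM in WT and from 121429 to 203030.3 CPM in KO.

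Rpph1, the RNA of RNase P, was 7825, 8589, 11490 and 10078 CPM in WT liver and 15184, 14579, 10283 and 9304 CPM in KO liver, with KO 5 and KO 6 highest as for 7SL (log2 change 0.35 ± 0.122, adjusted p 0.119). It was 4629, 4981, 4136 and 4619 CPM in WT cerebellum and 5096, 4425, 5288 and 5144 CPM in KO (0.13, adjusted p 0.251). Leaving out single cerebellum libraries gave an adjusted p of 0.0284 to 0.448, and only the fit without KO 6 passed. Rpph1 in testes was 2164, 2790, 2909 and 2542 CPM in WT and 2680, 2628, 3326 and 1880.2 CPM in KO (0.11, adjusted p 0.553, and TMM -0.07). Groups overlapped in each tissue.

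The pair at the ribosomal RNA locus did not pass either. Gm26917 in testes was 12250, 17737, 12626 and 11438 CPM in WT and 10744, 11152, 18368 and 24625 CPM in KO, with the highest values in KO 7, KO 8 and WT 2 (log2 change -0.05, TMM 0.14, adjusted p 0.844 and 0.696). In liver it was 38080, 38634, 36495 and 37318 CPM in WT and 37721, 38052, 32406 and 28796 CPM in KO. In cerebellum it was 15737, 16196, 15238 and 13900.1 CPM in WT and 17791, 15170.5, 20459 and 18369.8 CPM in KO, overlapping through KO 6 (log2 change 0.09, TMM 0.22, adjusted p 0.542 and 0.093). Gm42418 overlapped between genotypes in cerebellum and testes (log2 changes 0.07 and 0.00, adjusted p 0.582 and 0.996). Leaving out single cerebellum libraries gave it an adjusted p of 0.0492 to 0.884, and only the fit without KO 6 passed. In liver Gm42418 was 9749.5, 11604, 8336 and 93335 CPM in WT and 8509, 7387, 10590 and 7190 CPM in KO, and WT 4 alone stood apart. The liver change was -0.89 (adjusted p 0.446) with WT 4 and -0.02 without it.

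Other genes were also high in liver WT 4. Lars2, the mitochondrial leucyl-tRNA synthetase, stood at 5529 CPM there and at 70.3 to 276 CPM in the other liver libraries. CT010467.1 stood at 442.3 CPM against 41.8 to 76.3 CPM. AY036118 stood at 52.28 CPM, above 23.83 CPM in KO 6 and 15.28 CPM in KO 5. Why Gm42418 and Lars2 moved together in this library was not tested.

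**Figure D5:**
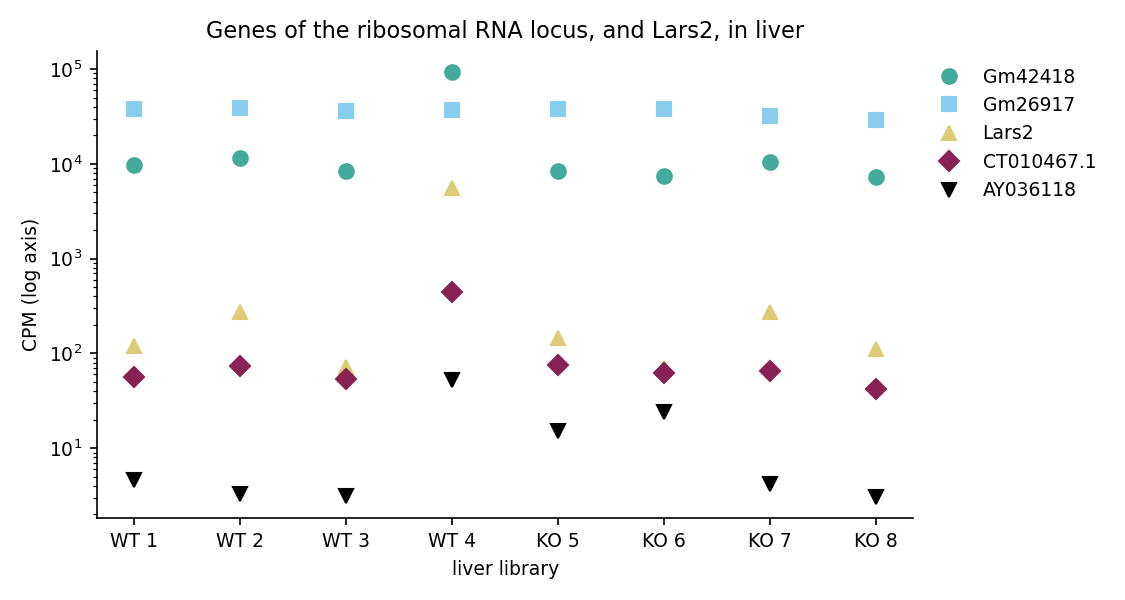
CPM (log axis) of Gm26917, Gm42418, Lars2, CT010467.1 and AY036118 in each of the 8 liver libraries. WT 4 is the highest library for Gm42418 (93335), Lars2 (5529), CT010467.1 (442.3) and AY036118 (52.28) but not for Gm26917.

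Over all 9 entries, the knockout effect passed the interaction test between liver and cerebellum for 1 entry (7.67% of 11112 genes passed), between testes and cerebellum for 0 (14.5% of genes; TMM limma-voom, 2 at an unadjusted p under 0.05) and between testes and liver for 2 (15.9% of genes). The first was Rnu2-10, from which nothing is read since its cerebellum fall was known, and the last were Rnu2-10 and Rn7sk. With copies summed, the counts were 0, 0 and 1 of 7, against 7.72%, 14.6% and 15.9% of all features, and Rn7sk between testes and liver was the 1.

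The proteins that work with these RNAs were read from lists of partners. The testes values below come from libraries in which 4 of 7 male germ cell markers fell (summed 6840 to 8886 CPM in KO, 9577 to 10056.5 CPM in WT) and 5 of 8 Sertoli cell markers rose (summed 1226 to 1784 CPM in KO, 964 to 1141 CPM in WT), and the part of this in the partner values was not tested. Of 73 partner proteins tested in cerebellum 1 rose and 2 fell, of 71 in liver none passed, and of 72 in testes 6 rose and 4 fell. In liver 6 had an unadjusted p under 0.05, and TMM, edgeR and DESeq2 called 0, 0 and 1. For the signal recognition particle, 1 of 10 fell in cerebellum (Srp54c, a subunit that binds signal sequences, -0.25, adjusted p 0.040) and 1 of 10 in testes (Srprb, a subunit of the receptor, -0.22, adjusted p 0.0263), and 0 of 10 passed in liver. Of all genes 6.44%, 20.5% and 5.91% passed in these tissues, in the same order.

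Among 7 proteins of the 7SK and P-TEFb complexes, 0 passed in cerebellum and liver, with 1 at an unadjusted p under 0.05 in each. DESeq2 called 1 in cerebellum (8.19% of all genes). In testes 2 of 7 passed (20.5% of all genes), and TMM limma-voom, edgeR and DESeq2 each called 3. There Ccnt2, a cyclin of P-TEFb, rose by 0.34 (adjusted p 0.00747) and Hexim2, one of its inhibitors, fell by 0.37 (adjusted p 0.0123). Of the RNase P and MRP proteins, Rpp21 alone passed, in testes (-0.34, adjusted p 0.031, 1 of 10 against 20.5% of all genes). Of 19 U2 and Sm proteins, Sf3a2 rose by 0.25 in cerebellum (adjusted p 0.0304), and its gene overlaps Plekhj1 on the opposite strand. In testes Sf3b5 fell by 0.36 (adjusted p 0.0116) and Sf3b1 rose by 0.17 (adjusted p 0.036), the latter with 0.07 and an adjusted p of 0.323 under TMM.

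The 26 factors of RNA polymerase III and small RNA gene transcription had 1 lower gene in cerebellum (Snapc3, -0.17, adjusted p 0.0487, which overlaps Psip1 on the opposite strand), 0 in liver, and 4 higher genes in testes. These included Polr3a, the largest subunit of the polymerase (0.38, adjusted p 0.0133), Polr3g and Ssb (0.27 each), and Ssb overlaps Gm13625 and Mettl5 on the opposite strand. The 4 genes were 15.4% of the list, against 20.5% of all genes in testes. Leaving out single libraries raised the adjusted p to as much as 0.117 for Srp54c, 0.0962 for Srprb, 0.0937 for Rpp21, 0.0898 for Sf3a2, 0.096 for Sf3b1, 0.134 for Snapc3, 0.0722 for Polr3g and 0.0899 for Ssb. The others named here stayed under 0.05. The shares of partner proteins called were 4.11%, 0 and 13.9% in cerebellum, liver and testes, against 6.44%, 5.91% and 20.5% of all genes. With DESeq2 the order turned in cerebellum, at 9.59% of partners and 8.19% of all genes.

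Within genotypes and tissues, several of these RNAs moved together. Over the 24 libraries, deviations from group means (log2 scale) correlated between 7SL and Rpph1 with r = 0.9, between Rpph1 and Rmrp with r = 0.83 and between 7SL and Rmrp with r = 0.74. U2, made by RNA polymerase II, had r = 0.63 with 7SL, whereas Rn7sk, made by RNA polymerase III like 7SL, had r = 0.18 with 7SL and 0.33 with Rpph1. These points share library depth and preparation, and no test was made.

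The genes whose deviations were most like those of a member, among 11975 genes of at least 10 CPM, were Hist1h4h (r = 0.88), Eif5a (0.87) and Hist3h2a (0.83) for Rpph1, and Sipa1l3 (0.91), Iqsec2 (0.91) and Maz (0.9) for Gm26917. For Gm42418 they were CT010467.1 (0.97), Lars2 (0.94) and Zfr2 (0.90), and without liver WT 4 these became 0.87, 0.66 and 0.70 over 23 libraries. Rps16, Fau and Cox5b led for Rn7sk (0.83 for Rps16), Bdp1, Zfp563 and Hsd3b1 for Rn7s1 (0.76 for Bdp1), and Lin9, Calm3 and Pheta1 for Rn7s2 (0.79 for Lin9). Gm24950, an identical copy, led for Rnu2-10 (0.83), followed by Gosr1 and Dctn4. Oat, Hist1h4h and Glul led for the ribozyme entry of Rmrp (0.81 for Oat) and Cd59a, Rpl9 and Dgcr6 for its long noncoding entry (0.81 for Cd59a).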

How the data were processed

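Total RNA libraries from 3 mouse tissues (24 libraries, 6 groups of 4) were prepared with a stranded kit after removal of ribosomal RNA. The authors aligned paired reads to mm10 with STAR and counted GENCODE M21 genes with RSEM, and deposited a table of expected counts, which are estimated and need not be whole. Versions and the strand setting were not given in the sources used here. All 24 columns were matched to labels by name (0 unmatched), and counts were rounded for the count tests.

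CPM and shares were taken over each library's total, 16353797 to 37889615 counts. Intervals at 95% (Wilson) and the floor of 3 counts cover counting error only. Genes with at least 1 CPM in at least 4 of the 8 libraries of a tissue were quantile normalized and tested with limma-voom (limma 3.58.1, R 4.3.3), with Benjamini-Hochberg adjustment at 0.05 over all genes. Interactions were fitted over all tissues with TMM. Alternatives were TMM, edgeR 4.0.16, DESeq2 1.42.0, no filter, totals without the 8 genes, and each library left out. Sums of identical copies were added after seeing the data. Copies were found with blastn 2.17.0. On simulated data the quantile fit recovered 90.0%, 95.5% and 96.0% of 200 changed genes in cerebellum, liver and testes. Of the genes called there, 2.703%, 5.446% and 1.538% were unchanged ones. The changed genes were drawn at random with a fixed size of change and a fixed spread between libraries. This recovery therefore does not describe the members.

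Members and gene lists were chosen with earlier results of these data known. Named were all 8 members, the 3 genes with the most similar deviations (mean of at least 10 CPM, log2 with 1 added), and up to 3 called partners per list and tissue with the largest change, plus Thumpd1.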

Additional observations from a re-analysis of the deposited data

Results flagged for a closer look

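Gm42418 in liver was far from the other WT libraries in WT 4, at 93334.8 CPM against 8336 to 11604 CPM, and the same library was far above the other WT libraries for Lars2 (5528.8 CPM against 72.7 to 276 CPM), CT010467.1 (442.3 CPM against 53.7 to 74.3 CPM) and AY036118 (52.3 CPM against 3.15 to 4.57 CPM). Rn7s2 in liver was highest in WT 3, at 150760.9 CPM against 72035 to 75508 CPM, and in testes lowest in KO 8, at 9829.9 CPM against 13916 to 14426 CPM. Each of these gaps exceeded Dixon's 95% critical value for groups of 4. Of 96 groups examined 6 did so, and chance gives about 1 in 20. Rn7s2 shares its sequence with Rn7s1, and their sum in liver was 167914 CPM in WT 3 and 163530.2 CPM in WT 4. In testes the sum was lowest in KO 8, at 15170.5 CPM against 20982 to 22989.6 CPM in the other KO libraries.

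The knockout effects of Rnu2-10 and Rn7sk differed between testes and liver by the interaction test. For Rnu2-10 the liver minus cerebellum difference was 3.97 on the log2 scale, and since it holds the cerebellum fall known when the genes were listed, nothing is read from its test. The testes minus liver difference of Rnu2-10 was -3.88 (adjusted p 0.0234), and -2.29 without liver WT 4. The sum of the 4 identical U2 entries passed neither (0.87, adjusted p 0.0519, and -0.53, adjusted p 0.191). Its 0.87 holds the same fall, so nothing is read from that test. For Rn7sk the testes minus liver difference was -0.48 (adjusted p 0.00731), and with all tissues quantile normalized to one distribution it was -0.27 (adjusted p 0.409).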

How the results depend on the processing

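In liver, TMM limma-voom, edgeR, DESeq2, totals without the members and TMM with copies summed each called 1 member (Rn7sk) where quantile limma-voom called 0. Summing copies, under either normalization, took the 1 call in cerebellum to 0 and the 1 call in testes to 0. With copies summed under TMM, Rn7sk in liver had an adjusted p of 0.0286, and 0.0510 without WT replicate 4. Leaving out single libraries gave 1 to 3 calls in cerebellum, 0 to 1 in liver and 1 to 2 in testes, and 0 to 2, 0 to 2 and 2 to 4 for the differences liver minus cerebellum, testes minus cerebellum and testes minus liver. For these differences, copies summed gave 0, 0 and 1 calls and one distribution over all tissues gave 2, 0 and 2. There Rn7s1 was called for liver minus cerebellum (0.51, adjusted p 0.0307) and for testes minus liver (-0.44, adjusted p 0.0475), and Rn7sk was not. The shares of all genes called are not given for the fits with a library left out or with one distribution. Their counts of members are therefore descriptions.

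Libraries with the same number had correlated deviations over 0.1 in 10 of 24 pairs (r from -0.212 to 0.201), among them all 4 KO pairs and 0 of 4 WT pairs of liver and testes, and in 7 of 24 the own number correlated best. The numbers were therefore not taken to pair the libraries. A fit with the replicate block gave 2, 1 and 4 calls for the 3 differences, where 1, 0 and 2 were called without it. Without the block 7.67%, 14.5% and 15.9% of all genes were called. The shares with the block are not given, so its counts cannot be set against them. The block added Rn7s1 (liver minus cerebellum 1.32, adjusted p 0.0425, testes minus liver -1.21, adjusted p 0.0418) and the long noncoding entry of Rmrp (-0.44 for testes minus cerebellum and testes minus liver, adjusted p 0.0237 and 0.0190).

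Signs turned for small changes that passed no threshold. Under TMM, edgeR, DESeq2, totals without the members and TMM with copies summed, Rn7sk in cerebellum went from -0.04 to 0.13. In testes, under TMM, edgeR, DESeq2 and totals without the members in this order, the ribozyme entry of Rmrp went from 0.06 to -0.0807, -0.0735, -0.0771 and -0.0783, Rpph1 from 0.11 to -0.0656, -0.0509, -0.0542 and -0.0631, Rn7s2 from 0.05 to -0.15, -0.17, -0.18 and -0.15, and Gm26917 from -0.05 to 0.14, 0.20, 0.20 and 0.14. Under TMM with copies summed, Rpph1 in testes was -0.0623 and Gm26917 was 0.14. Gm26917 was 0.0742 with all copies or only the 7SL entries summed under quantile normalization. Leaving out single libraries gave -0.0179 to 0.14 for Gm26917 in cerebellum and -0.14 to 0.0844 in testes, -0.63 to 0.0360 for Rn7s2 in liver and -0.0833 to 0.15 in testes, and -0.0764 to 0.15 for the ribozyme entry in testes. Of the values for single genes, 355 kept direction and call, 9 passed only under the alternative and 36 turned. The cause was not tested. Rnu2-10 lay under 3 counts in liver WT 4, where 99.9% of the counts of the 4 identical U2 entries were given to Gm23971, so that the division of reads among copies limits the single entries.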

Other observations

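Rnu1b2, an entry for U1 small nuclear RNA, was the 1 small structured RNA outside the members that passed in cerebellum with limma-voom, and DESeq2 called 0. It ranged from 0 to 2.34 CPM in WT and from 3.64 to 5.14 CPM in KO, and its fitted change depends on the value added to zero counts, so that no fold is given. Its sister entry Rnu1b1 had the same KO range, 3.64 to 5.14 CPM, and a WT range of 2.34 to 8.28 CPM, with a log2 change of -0.18 (adjusted p 0.792).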
